A study of Homo sapiens with 15 samples.

Results

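10 genes of the spindle checkpoint and of the step into anaphase were followed across all 15 libraries of a study of HCT116, a human colorectal carcinoma cell line (genotype given as WT). The set holds 10 of the 60664 genes in the deposited table: BUB1, BUB1B, BUB3, MAD2L1, TTK, CDC20, FZR1, PTTG1, ESPL1 and UBE2C, chosen by symbol for their function. They and the lists of related genes below were picked by hand with earlier results of these data known. Cells were exposed for 72 h to an extract of olive oil production waste products (OPWP), called AE where the mill waste came from Apulia, TE for Tuscany and SE for Sicily, or to hydroxytyrosol (HTyr), a major olive phenol, each at 0.0154 mg/mL, or were left untreated. Each of the 5 groups has 3 libraries of poly(A) RNA. What else the extracts contain was not measured in these files, and a given mass of extract and of pure HTyr need not hold the same amount of any 1 compound.

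The spindle checkpoint holds a dividing cell in metaphase until every chromosome is attached to the spindle. At unattached kinetochores the kinase TTK starts a signal that brings in BUB3, BUB1 and BUB1B, and MAD2L1 is turned into the form that binds CDC20. CDC20 is a co-activator of the anaphase-promoting complex (APC/C), a ubiquitin ligase. While it is bound by MAD2L1, BUB1B and BUB3 the ligase is kept from acting on targets such as cyclin B. When the signal ends, APC/C with CDC20 and the ubiquitin-conjugating enzyme UBE2C marks cyclin B and securin (PTTG1) for destruction. Securin is the inhibitor of separase (ESPL1), which then cuts cohesin and lets sister chromatids part. FZR1 encodes CDH1, the other co-activator, which takes over from CDC20 in late mitosis and G1. Transcripts of many of these genes are made mostly in G2 and mitosis in dividing cells.

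Values are TPM, an abundance corrected for transcript length and given relative to the whole library, so levels can be set side by side between genes. In the 5 groups the summed TPM of the 10 genes was 845 to 886 in AE, 753 to 785 in TE, 1150 to 1179 in SE and 907 to 970 in HTyr libraries, against 451 to 541 in untreated libraries. Every treated library therefore lay above every untreated one in that sum. RNA of whole cultures was measured, so more cells in the phases that make these transcripts and more transcript per cell cannot be told apart. Differences were tested with limma on log2(TPM + 0.5) over 14899 genes, all 10 members among them, that reached 1 TPM in 3 or more libraries. A gene was called at a Benjamini-Hochberg adjusted p under 0.05 together with a change of more than 1.5 times in either direction (0.58 on the log2 scale), and "rose" or "higher" below means called. Fold changes on this scale understate the change of genes with low TPM.

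HCT116 identity and library quality were looked at over the same libraries. EPCAM was at 269.8 to 345.6 TPM and CDH1, the gene of E-cadherin, at 25.28 to 48.42 TPM, while VIL1 was at 0.23 TPM or less. The 7 epithelial markers summed to 2307.07 to 3144.12 TPM in treated libraries and 4196.36 to 4242.55 TPM in untreated ones, with KRT18 and KRT19 lower in the mean of the treatments. Of 10 markers of other cell types, COL1A2 and CDH5 were at 0 in every library, 6 others stayed at 0.36 TPM or less and COL1A1 was at 4.06 to 8.53 TPM. CD68, which tumour cells can also express, was at 1.58 to 6.82 TPM in treated and 16.38 to 17.33 TPM in untreated libraries. These 10 markers summed to 6.57 to 11.26 TPM in AE, 9.22 to 13.71 in TE, 7.76 to 9.11 in SE and 10.64 to 14.45 in HTyr libraries, against 22.9 to 25.68 in untreated ones; their part in the results below was not tested. The mitochondrially encoded share of TPM was 17% to 21.5% in treated and 15.6% to 18.7% in untreated libraries, and was not tested as a cause either.

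Group labels limit how TE and SE may be read. For these 2 extracts the titles carry a bracketed code whose letter points to the opposite region from the description, while the wording of the titles names the same region as the description. The description was followed, as in the headers of the authors' supplementary table. In each TE and SE library all 1539 genes compared held the value of the supplementary column headed by its description. At most 13 did so in any other deposited column. What the code stands for is not stated, but for AE it is the name of the deposited column. For TE and SE it is the name of a column assigned here to the other extract. Read as column names, the codes would exchange all TE and SE values, while the mean of the 4 treatments does not depend on them. The replicates are called biological, and the study describes its data in general as coming from independent experiments. The sources used here do not say how the sequenced cultures were kept apart, so the p-values cover the spread among these libraries.

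Promoter sequences are shown for members that moved together and for FZR1, which did not move with them. Many genes of late cell cycle phases carry a cell cycle genes homology region (CHR), bound by MuvB complexes, and CCAAT boxes, bound by NF-Y. Windows of 300 bases, 250 before and 50 after the start site, from RefSeq (GRCh38.p14) were used here for 7 of the 10 genes; those of BUB3, TTK and UBE2C were not analysed here. The CHR was searched as TTTGAA or as TTCGAA, and the CCAAT box by the letters of its name, on both strands. Matches are in capitals in the sequences below, so a match on the opposite strand appears as its reverse complement. Each sequence runs 5′ to 3′ on the gene's own strand.
CDC20 (chr1:43358731-43359030, plus strand): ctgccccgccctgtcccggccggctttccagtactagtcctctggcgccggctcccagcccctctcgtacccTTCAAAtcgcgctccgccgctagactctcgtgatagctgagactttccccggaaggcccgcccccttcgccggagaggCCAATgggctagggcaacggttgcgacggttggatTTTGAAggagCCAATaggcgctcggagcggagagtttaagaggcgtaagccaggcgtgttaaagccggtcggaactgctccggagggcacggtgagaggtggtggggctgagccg
ESPL1 (chr12:53268049-53268348, plus strand): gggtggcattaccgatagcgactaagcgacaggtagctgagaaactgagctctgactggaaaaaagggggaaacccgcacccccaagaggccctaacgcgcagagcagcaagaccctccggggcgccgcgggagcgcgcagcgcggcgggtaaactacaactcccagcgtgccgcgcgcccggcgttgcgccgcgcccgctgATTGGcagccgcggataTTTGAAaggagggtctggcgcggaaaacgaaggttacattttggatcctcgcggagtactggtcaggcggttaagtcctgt
BUB1 (chr2:110678014-110678313, minus strand): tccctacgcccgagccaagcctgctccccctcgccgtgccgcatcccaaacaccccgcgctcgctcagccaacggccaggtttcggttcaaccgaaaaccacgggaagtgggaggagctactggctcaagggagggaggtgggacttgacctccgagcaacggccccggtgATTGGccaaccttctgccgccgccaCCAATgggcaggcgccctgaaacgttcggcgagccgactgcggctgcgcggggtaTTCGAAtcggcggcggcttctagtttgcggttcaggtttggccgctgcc
PTTG1 (chr5:160421605-160421904, plus strand): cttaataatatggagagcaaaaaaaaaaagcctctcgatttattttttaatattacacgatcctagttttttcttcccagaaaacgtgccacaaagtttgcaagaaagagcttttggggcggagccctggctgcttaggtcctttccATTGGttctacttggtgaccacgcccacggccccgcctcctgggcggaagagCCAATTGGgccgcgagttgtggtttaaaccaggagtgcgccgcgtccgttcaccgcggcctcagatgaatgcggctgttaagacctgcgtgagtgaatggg
FZR1 (chr19:3506061-3506360, plus strand): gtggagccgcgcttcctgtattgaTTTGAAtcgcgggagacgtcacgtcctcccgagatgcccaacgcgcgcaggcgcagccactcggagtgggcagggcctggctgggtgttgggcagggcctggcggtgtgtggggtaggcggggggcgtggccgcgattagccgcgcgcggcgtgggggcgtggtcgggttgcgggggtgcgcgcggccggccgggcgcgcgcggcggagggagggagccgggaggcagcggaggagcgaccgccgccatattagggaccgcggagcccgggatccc
In CDC20 the CHR letters began at -65 and a CCAAT at -55, counted from the start site, with a further CCAAT at -100 and a reversed CHR match at -178. In ESPL1 a reversed CCAAT began at -48 and the CHR letters at -31, and in BUB1 the CCAAT matches began at -79 and -54 and the CHR letters at +2. PTTG1 held 3 CCAAT matches in each of its 2 overlapping windows, 2 of them sharing bases, and no CHR letters. BUB1B (chr15:40160819-40161118) held CHR letters at -23 and no CCAAT, and MAD2L1 (chr4:120066799-120067098) held CHR letters at +25 and a reversed CCAAT at -229. In FZR1 the only match was a CHR at -226 in 1 of its 2 windows. Among all 35116 promoter windows of the same length, 16.4% hold the CHR letters and 34.6% a CCAAT. These matches describe the letters in the windows and are not evidence of binding.

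Exposure to each of the 4 treatments was compared with untreated cells. With AE 9 of the 10 genes rose (10.7% of all tested genes rose), with TE 6 rose (7.46% of all genes), with SE 9 rose (17.0%) and with HTyr 8 rose (7.80%); no member fell in any of these comparisons. BUB1, BUB3, CDC20, ESPL1, MAD2L1 and PTTG1 rose with all 4 treatments, 6 of 10 members where 4.66% of all tested genes did so. TTK and UBE2C rose with AE, SE and HTyr, BUB1B rose with AE and SE, and FZR1 with none. The median log2 fold change of the 10 genes was 0.84 for AE, 0.63 for TE, 1.23 for SE and 0.89 for HTyr, while that of all tested genes was 0.09, 0.05, 0.09 and -0.04 in the same order. In the mean of the 4 treatments 9 of 10 rose (10.4% of all genes), and the members' median was 0.93 against 0.05 over all genes. The 4 comparisons share the untreated libraries, so their calls are not independent of each other. The members were picked with earlier results known, so their counts beside these shares are a description.

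**Figure D1:**
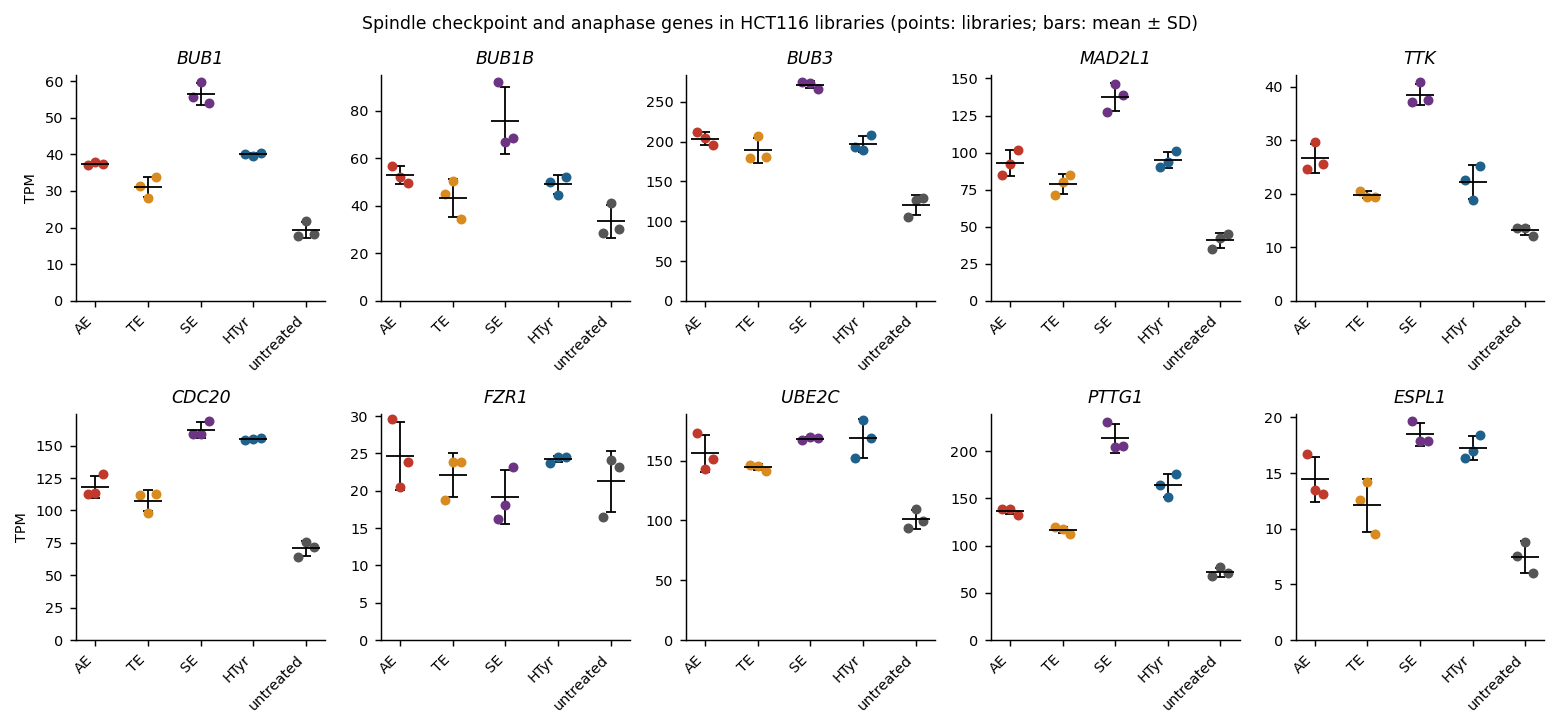
TPM of each gene (vertical axes, each starting at 0) in the 3 AE, TE, SE, HTyr and untreated libraries; points are libraries, the horizontal bar is the mean and the error bar 1 SD. In 8 of the 10 panels all 12 treated libraries lie above all 3 untreated ones, and in the FZR1 panel the groups overlap.

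In 8 of the 10 genes all 12 treated libraries lay above all 3 untreated libraries, as they did for 15.3% of all tested genes. The exceptions were BUB1B, with 11 of 12 treated libraries above, and FZR1, with 3 of 12. The group mean was highest in SE for 8 genes, and for 9 genes TE had the lowest mean of the 4 treatments and untreated cells the lowest of all. How many of all tested genes have this order was not counted. Over all genes SE also had the largest share of rises (17.0%) and TE the smallest (7.46%), so the order may not be particular to these genes.

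TTK (ENSG00000112742, chr6:80003887-80042527) encodes MPS1, the kinase that starts the checkpoint signal by phosphorylating KNL1 at the kinetochore. It had 24.61, 29.76 and 25.61 TPM in AE, 20.61, 19.45 and 19.50 TPM in TE, 37.25, 40.89 and 37.61 TPM in SE and 22.69, 18.86 and 25.17 TPM in HTyr libraries, against 13.68, 13.66 and 12.20 TPM in untreated ones. The SE libraries stood above all others, and no treated library reached down to the untreated range. TTK rose with SE by a log2 fold change of 1.52 ± 0.10 (standard error, limma adjusted p = 2.9e-08), with AE by 0.99 ± 0.10 (adjusted p = 4.9e-06) and with HTyr by 0.73 ± 0.10 (adjusted p = 8.1e-05). With TE the value was 0.57 ± 0.10 (limma adjusted p = 0.00061), just short of the fold threshold. It passed that threshold without TE replicate 2 (0.59), TE replicate 3 (0.59), untreated replicate 1 (0.60) or untreated replicate 2 (0.60). It also passed with a pseudocount of 0.1 (0.59) and without mitochondrially encoded genes (0.62).

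BUB1 (ENSG00000169679, chr2:110637528-110678063) encodes a kinase that docks at the kinetochore and marks centromeric histone H2A, which recruits shugoshin. It had 37.11, 37.91 and 37.31 TPM in AE, 31.44, 28.09 and 33.68 TPM in TE, 55.73, 59.67 and 53.98 TPM in SE and 40.19, 39.59 and 40.42 TPM in HTyr libraries, against 17.72, 21.71 and 18.33 TPM in untreated ones. The groups did not overlap at all: SE was highest, HTyr and AE next and close to each other, TE below them and untreated lowest. The log2 fold changes over untreated cells were 0.95 in AE, 0.68 in TE, 1.53 in SE and 1.04 in HTyr, each ± 0.08 (limma adjusted p = 1.0e-06, 2.9e-05, 3.5e-09 and 6.0e-07).

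BUB1B (ENSG00000156970, chr15:40161023-40221123) encodes BUBR1, the subunit of the mitotic checkpoint complex that blocks APC/C as a pseudosubstrate. Its standard errors were the largest of the genes that rose. It had 56.84, 52.32 and 49.46 TPM in AE, 44.80, 50.30 and 34.56 TPM in TE, 92.07, 66.80 and 68.74 TPM in SE and 50.23, 44.68 and 52.23 TPM in HTyr libraries, against 28.78, 41.40 and 30.35 TPM in untreated ones. 1 TE library lay within the untreated range, and untreated replicate 2 stood well above the other untreated libraries. BUB1B rose with SE by 1.17 ± 0.16 (limma adjusted p = 3.3e-05) and with AE by 0.67 ± 0.16 (adjusted p = 0.0047), but without untreated replicate 1 the AE value was 0.57, and under median-ratio scaling 0.57, under the fold threshold. With HTyr the log2 fold change was 0.56 ± 0.16 (adjusted p = 0.014), and it passed the threshold without HTyr replicate 2 (0.62) or untreated replicate 2 (0.72) and under median-ratio scaling (0.59). With TE it was 0.36 ± 0.16 (adjusted p = 0.097; 95% interval 0.02 to 0.71).

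BUB3 (ENSG00000154473, chr10:123154402-123170467), the propeller protein that carries BUB1 and BUB1B to KNL1, was the most abundant checkpoint transcript of the set. It had 212.09, 204.17 and 195.61 TPM in AE, 179.21, 207.33 and 180.70 TPM in TE, 274.47, 273.60 and 266.54 TPM in SE and 192.97, 189.95 and 208.05 TPM in HTyr libraries, against 105.63, 127.32 and 128.83 TPM in untreated ones. AE, TE and HTyr overlapped one another, SE lay above them and untreated below. The rises were 0.76 in AE, 0.65 in TE, 1.17 in SE and 0.71 in HTyr, each ± 0.08 (limma adjusted p = 5.1e-06, 3.1e-05, 2.9e-08 and 1.2e-05). The TE call was lost without TE replicate 2 (0.58) or untreated replicate 1 (0.56).

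MAD2L1 (ENSG00000164109, chr4:120055623-120066858) encodes MAD2, the protein whose closed form binds CDC20. It showed the largest change of the 10 genes with each of the 4 treatments. It had 84.72, 92.16 and 101.76 TPM in AE, 71.26, 80.50 and 84.69 TPM in TE, 127.44, 146.43 and 138.70 TPM in SE and 90.44, 93.72 and 101.18 TPM in HTyr libraries, against 35.26, 42.29 and 44.91 TPM in untreated ones. The SE mean was 3.37 times the untreated mean, those of HTyr and AE 2.33 and 2.28 times, and that of TE 1.93 times. The log2 fold changes were 1.18 in AE, 0.94 in TE, 1.74 in SE and 1.22 in HTyr, each ± 0.10 (limma adjusted p = 8.9e-07, 1.0e-05, 6.8e-09 and 9.1e-07).

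CDC20 (ENSG00000117399, chr1:43358981-43363203) encodes the co-activator on which the checkpoint acts. It had 112.79, 113.51 and 128.03 TPM in AE, 112.22, 98 and 112.54 TPM in TE, 158.68, 158.65 and 169.32 TPM in SE and 154.27, 155.12 and 155.65 TPM in HTyr libraries, against 64.35, 75.61 and 72.17 TPM in untreated ones. HTyr lay close to SE, and both lay above AE and TE, whose ranges almost met at 112.54 and 112.79 TPM. CDC20 rose by 0.74 in AE, 0.60 in TE, 1.19 in SE and 1.13 in HTyr, each ± 0.07 (limma adjusted p = 3.9e-06, 3.5e-05, 1.4e-08 and 1.5e-07). The TE call was lost without TE replicate 1 (0.57), TE replicate 3 (0.57) or untreated replicate 1 (0.54), and under median-ratio scaling (0.56).

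FZR1 (ENSG00000105325, chr19:3506311-3538334) encodes the CDH1 co-activator of late mitosis and G1, not the E-cadherin gene named above. It had 29.60, 20.52 and 23.79 TPM in AE, 18.74, 23.89 and 23.83 TPM in TE, 16.23, 18.08 and 23.20 TPM in SE and 23.78, 24.51 and 24.48 TPM in HTyr libraries, against 16.52, 24.10 and 23.15 TPM in untreated ones. Every treatment overlapped the untreated libraries. The log2 fold changes were 0.21 with AE, 0.07 with TE, -0.14 in SE and 0.21 with HTyr, each ± 0.17 (limma adjusted p = 0.34, 0.79, 0.50 and 0.36). In the mean of the 4 treatments it was 0.09, with a 95% interval of -0.20 to 0.37, and -0.08 without untreated replicate 1, its lowest untreated library. A change in FZR1 of the size seen in MAD2L1 lies outside that interval.

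UBE2C (ENSG00000175063, chr20:45812576-45816957) encodes the ubiquitin-conjugating enzyme that starts chains on APC/C targets. It had 173.06, 142.87 and 151.66 TPM in AE, 146.14, 145.51 and 141.43 TPM in TE, 166.76, 169.66 and 168.69 TPM in SE and 152.28, 184.20 and 168.88 TPM in HTyr libraries, against 93.91, 109.29 and 99.56 TPM in untreated ones. The 4 treatments lay close together, and all 12 treated libraries were above the untreated ones. UBE2C rose with AE by 0.62, with SE by 0.74 and with HTyr by 0.73, each ± 0.08 (limma adjusted p = 3.7e-05, 3.6e-06 and 1.1e-05), and with TE the value was 0.52 ± 0.08 (adjusted p = 0.00025), under the fold threshold. The AE call was lost without AE replicate 1 (0.55) or untreated replicate 1 (0.57), and under quantile normalization (0.53), which also took the SE value (0.55) and the mean of the 4 treatments (0.56) below the threshold.

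PTTG1 (ENSG00000164611, chr5:160421855-160428739) encodes securin, which is both the inhibitor and a chaperone of separase. It had 138.93, 138.44 and 132.35 TPM in AE, 119.34, 117.43 and 112.45 TPM in TE, 231.13, 203.98 and 205.18 TPM in SE and 163.72, 151.68 and 175.24 TPM in HTyr libraries, against 67.61, 77.03 and 70.96 TPM in untreated ones. No 2 groups overlapped, in the order SE, HTyr, AE, TE and untreated. The rises were 0.92 in AE, 0.69 in TE, 1.56 in SE and 1.18 in HTyr, each ± 0.07 (limma adjusted p = 3.1e-07, 6.1e-06, 7.5e-10 and 6.8e-08).

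ESPL1 (ENSG00000135476, chr12:53268299-53293638) encodes separase, the protease that opens the cohesin ring, and had the lowest TPM of the set. It had 16.72, 13.46 and 13.11 TPM in AE, 12.54, 14.18 and 9.54 TPM in TE, 19.63, 17.86 and 17.90 TPM in SE and 16.31, 16.99 and 18.43 TPM in HTyr libraries, against 7.52, 8.84 and 5.99 TPM in untreated ones. SE overlapped HTyr, HTyr overlapped AE and AE overlapped TE, and the lowest TE library lay just above the highest untreated one. ESPL1 rose by 0.92 in AE, 0.66 in TE, 1.27 in SE and 1.17 in HTyr, each ± 0.15 (limma adjusted p = 0.00028, 0.0038, 8.3e-06 and 4.3e-05). The TE call was lost without TE replicate 2 (0.54) or untreated replicate 3 (0.52).

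**Figure D2:**
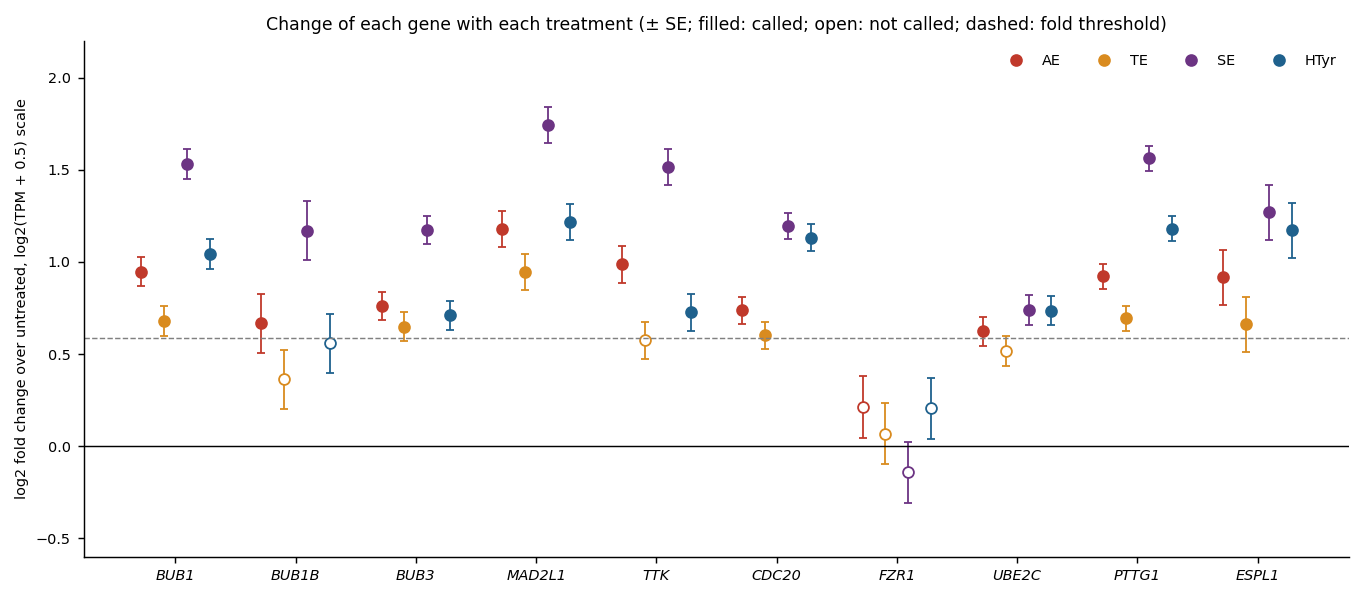
Log2 fold change of each gene over untreated cells (vertical axis, log2(TPM + 0.5) scale) for AE, TE, SE and HTyr; error bars are standard errors of the fit, filled points were called and the dashed line is the fold threshold. SE gives the highest point for 9 of the 10 genes and the lowest for FZR1.

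Copies of these genes can share reads with them. CDC20P1 was listed at 0.80 to 3.21 TPM, UBE2CP5 at 1.80 to 7.17 TPM and UBE2CP2 at up to 1.45 TPM, and PTTG2 and PTTG3P at up to 0.41 and 0.24 TPM, each far below its parent gene. CDC20-DT, which starts beside CDC20, was at 0.76 to 5.30 TPM. The kit marks strand, but no source used here says whether the quantification used strand.

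The 4 treatments were then set against one another, in 6 pairs, to ask where the pure phenol and the extracts differ; p-values were adjusted over genes within each pair and not over the pairs. SE was called higher for 7 of the 10 genes against TE, for 1 against AE and for 2 against HTyr. Against TE (4.70% of all genes were higher) TTK differed by 0.94, PTTG1 by 0.87, BUB1 by 0.85, BUB1B by 0.81, MAD2L1 by 0.80, ESPL1 by 0.61 and CDC20 by 0.59, with limma adjusted p between 1.0e-06 and 0.0083. The CDC20 call was lost without TE replicate 2 (0.53) or SE replicate 3 (0.56) and under quantile normalization (0.47). It was also lost with array weights (0.578) and without mitochondrially encoded genes (0.581). The ESPL1 call was lost without TE replicate 3 (0.45) or SE replicate 1 (0.56) and under quantile normalization (0.56). Both calls were lost under median-ratio scaling (0.53 and 0.54), while BUB3 (0.52, limma adjusted p = 0.00022) passed without TE replicate 2 (0.59). Against AE, PTTG1 was higher in SE by 0.64 ± 0.07 (adjusted p = 2.3e-05), the only 1 of 10 called (1.94% of all genes were higher). Of the 10 members 7 had an adjusted p under 0.05, but the share of all genes at that cut-off alone was not taken. The count of calls rested on the fold threshold: BUB1 stood at 0.58 (adjusted p = 0.00021), MAD2L1 at 0.57 and TTK at 0.53. Leaving out AE replicate 2, AE replicate 3, SE replicate 1 or SE replicate 3 gave 3, 2, 2 and 2 calls. PTTG1 itself fell below the threshold without SE replicate 1 (0.58) and under quantile normalization (0.51).

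Against HTyr, SE was higher for a checkpoint kinase and a subunit of the checkpoint complex. TTK was higher in SE than in HTyr by 0.79 ± 0.10 (limma adjusted p = 8.0e-05) and BUB1B by 0.61 ± 0.16 (adjusted p = 0.012), 2 of 10 members where 4.97% of all genes were higher. The BUB1B call was lost without SE replicate 1 (0.47), the SE library with the most BUB1B and a mitochondrially encoded share of 21.3%, and without HTyr replicate 2 (0.55). BUB1, BUB3, MAD2L1 and PTTG1 also had adjusted p under 0.05, at 0.49, 0.46, 0.53 and 0.38, short of the fold threshold. CDC20 differed by 0.06 (95% interval -0.09 to 0.22), UBE2C by 0.00 (-0.17 to 0.18) and ESPL1 by 0.10 (-0.23 to 0.42), so a difference as large as that of TTK lies outside these 3 intervals. Whether the TTK difference is itself larger than that of CDC20 was not tested. The median of all genes was 0.13 in this pair and 0.12 for AE against HTyr, and median-ratio scaling moved these by -0.13 and -0.12. Under that scaling CDC20, ESPL1 and UBE2C stood at -0.07, -0.04 and -0.13, and BUB1B, at 0.47, was not called. Over all genes the calls for SE against HTyr were 741 higher and 355 lower, and under median-ratio scaling 323 higher and 561 lower.

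**Figure D3:**
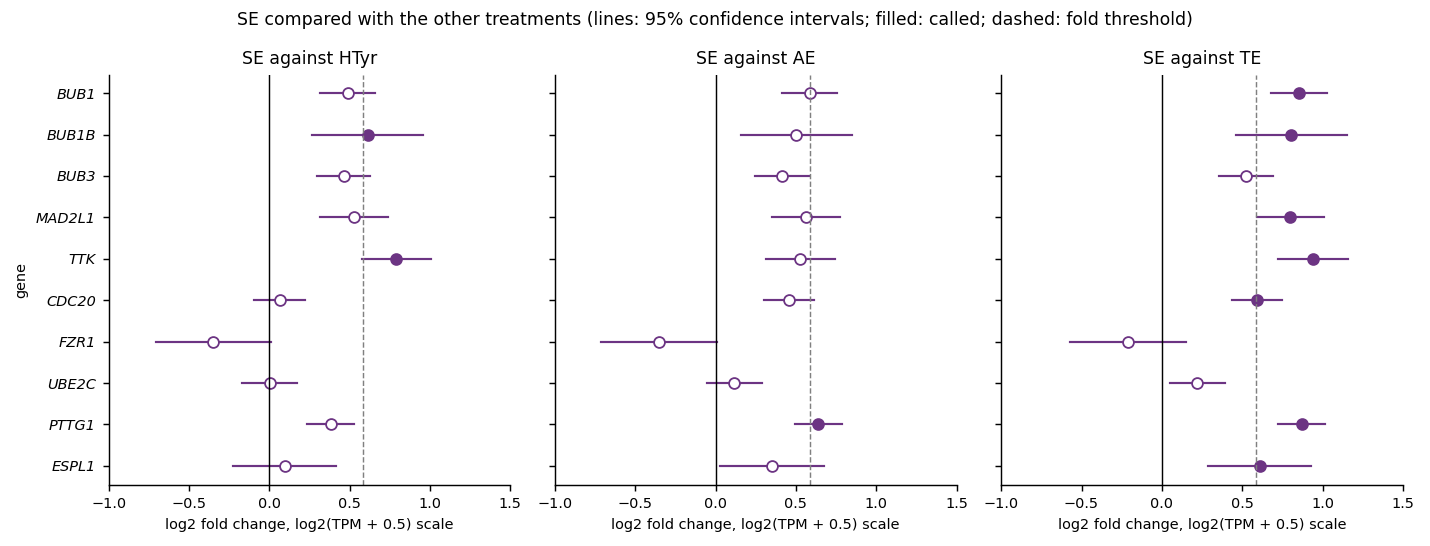
Log2 fold change of each gene in SE against HTyr, AE and TE (horizontal axes, log2(TPM + 0.5) scale); lines are 95% confidence intervals, filled points were called and the dashed line is the fold threshold. Against TE 7 genes are called, against AE 1 and against HTyr 2, and FZR1 lies below 0 in each pair without being called.

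No member was called between AE and HTyr (1.34% of all genes were, in either direction), TE and HTyr (0.705%) or AE and TE (0.0873%). At an unadjusted p under 0.05 limma gave 3, 6 and 4 members in these pairs, and at an adjusted p under 0.05 it gave 2, 3 and 0. Shares of all genes at these p cut-offs alone were not taken. The shares above also need the fold threshold, so these member counts cannot be set against them. CDC20 had a log2 fold change of -0.39 in AE against HTyr (95% interval -0.55 to -0.24, adjusted p = 0.0086) and of -0.53 in TE (-0.68 to -0.37, adjusted p = 0.0023), and all AE and TE libraries lay below all HTyr libraries. PTTG1 stood at -0.26 in AE (adjusted p = 0.033) and -0.49 in TE (adjusted p = 0.0023), and BUB1 stood at -0.37 in TE (adjusted p = 0.030). Under median-ratio scaling the TE value of CDC20 was -0.60 and was called. MAD2L1 differed between AE and HTyr by -0.04 (-0.25 to 0.17) and BUB3 by 0.05 (-0.12 to 0.22).

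Ratios of TPM within a library show which partner transcripts changed unequally, and the proteins were not measured in these files. They are given as a description, with no test. The pairs were chosen with results known, and how often other gene pairs separate the groups was not counted. CDC20 to FZR1 sets the transcript of the mitotic co-activator over that of the G1 co-activator. It averaged 4.91 ± 0.95 in AE, 4.94 ± 0.96 in TE, 8.62 ± 1.25 in SE and 6.39 ± 0.08 in HTyr libraries, against 3.38 ± 0.44 in untreated ones (SD, n = 3 each). Every TE, SE and HTyr library was above every untreated one, and AE replicate 1, at 3.81, was not. MAD2L1 to CDC20, the inhibitor over its target, averaged 0.79 ± 0.03 in AE, 0.74 ± 0.09 in TE, 0.85 ± 0.07 in SE and 0.61 ± 0.03 in HTyr libraries, against 0.58 ± 0.04 in untreated ones. All AE, TE and SE libraries lay above the untreated range, while HTyr overlapped it. PTTG1 to ESPL1, securin over separase, averaged 9.56 ± 1.09 in AE, 9.86 ± 1.78 in TE, 11.6 ± 0.19 in SE and 9.49 ± 0.56 in HTyr libraries, against 9.85 ± 1.73 in untreated ones, and every group overlapped untreated. BUB1B to BUB3 averaged 0.26 ± 0.01 in AE, 0.23 ± 0.03 in TE, 0.28 ± 0.05 in SE and 0.25 ± 0.01 in HTyr libraries, against 0.28 ± 0.05 in untreated ones, and also overlapped in every group.

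**Figure D4:**
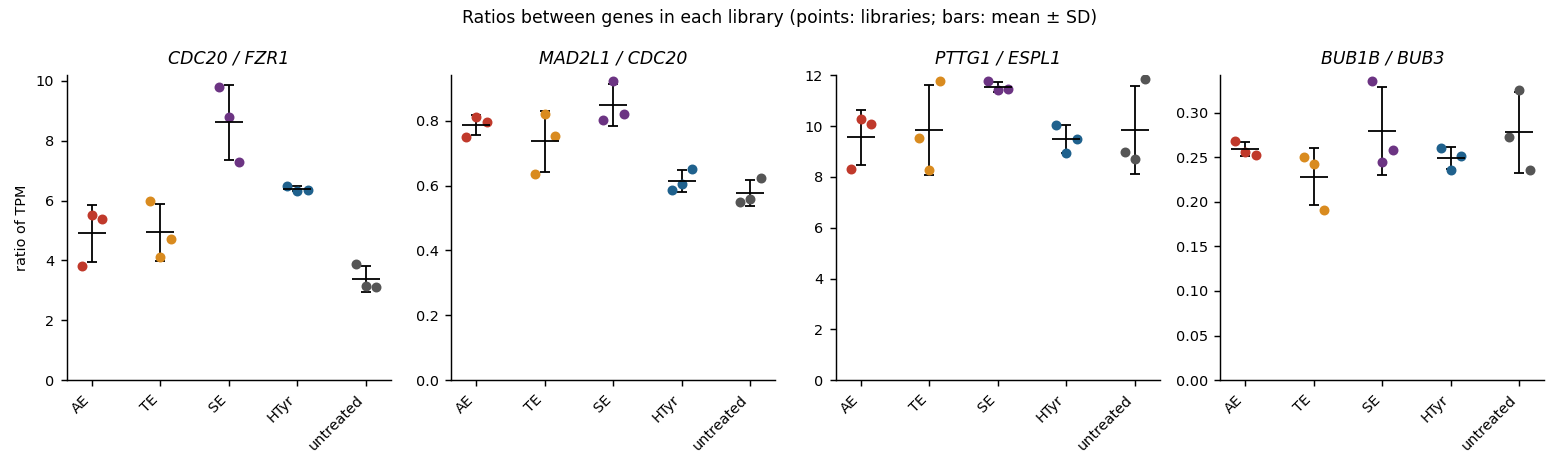
Ratios of TPM between partner genes in each AE, TE, SE, HTyr and untreated library (vertical axes start at 0); points are libraries, horizontal bars means and error bars 1 SD. CDC20 over FZR1 is highest in SE (mean 8.62), and PTTG1 over ESPL1 overlaps untreated in all groups.

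Over the 15 libraries 9 of the genes varied together. Pearson's r of each gene with the mean z-score of the other 9 was 0.97 for PTTG1 and BUB1, 0.96 for MAD2L1 and BUB3, 0.94 for CDC20, 0.93 for ESPL1 and UBE2C, 0.88 for TTK and 0.86 for BUB1B, and -0.01 for FZR1. Within the 12 treated libraries alone it was 0.69 to 0.94 for the other 9 genes and -0.41 for FZR1. The points share the 5 groups, and the difference between treated and untreated libraries enters the values over all 15. Of 10370 other genes with a mean of at least 5 TPM, TACC3 (r = 0.991), TPX2 and KIFC1 (both 0.988), KIF20A (0.987) and RACGAP1 (0.986) were most like the mean of the set, and 607 had r of at least 0.9. TACC3 and TPX2 are spindle assembly proteins, KIFC1 and KIF20A mitotic kinesins, and RACGAP1 a part of centralspindlin. TACC3 averaged 49.5 ± 3.7 TPM in AE, 41.3 ± 3.7 in TE, 69.5 ± 3.8 in SE and 51.2 ± 3.1 in HTyr libraries, against 23.0 ± 2.2 in untreated ones (SD, n = 3 each). SE was highest and TE lowest of the treatments, an order that follows from its choice by likeness to the set over these same libraries.

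Other genes of the pathway were taken from lists by function, made by hand with earlier results of these data known. Their counts beside the shares of all genes are therefore a description. Of 12 checkpoint partners at the kinetochore, 8 rose in the mean of the 4 treatments and none fell, with a median log2 fold change of 0.90 (0.05 over all genes); the counts of rises were 9 for AE, 7 for TE, 10 for SE and 7 for HTyr. Over all tested genes 10.4% rose in the mean, and 10.7% (AE), 7.46% (TE), 17.0% (SE) and 7.80% (HTyr) rose by treatment. TRIP13, an ATPase that takes the checkpoint complex apart, averaged 23.1 TPM in AE, 20.2 in TE, 40.9 in SE and 24.2 in HTyr cells, against 11.4 in untreated cells, a rise of 1.16 ± 0.07 in the mean (limma adjusted p = 3.3e-08). NDC80, which binds spindle microtubules, rose by 1.28 ± 0.09 (adjusted p = 6.3e-08), and PLK1, a mitotic kinase that also acts at kinetochores, by 1.14 ± 0.08 (adjusted p = 9.4e-08). MAD1L1, the kinetochore receptor of MAD2, stood at 0.00 ± 0.13 (adjusted p = 0.98) and was named after its value was seen.

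Of the 14 core subunits of APC/C, the ligase that CDC20 and FZR1 activate, 3 rose in the mean of the treatments and none fell, with a median of 0.16, and the counts of rises were 2 for AE, 1 for TE, 4 for SE and 2 for HTyr (10.4% of all genes in the mean, and 10.7%, 7.46%, 17.0% and 7.80% by treatment). Each of these counts, that for the mean included, lies within 2 genes of what the share over all genes would give for a list of this size. ANAPC15, which helps release the checkpoint complex from APC/C, rose by 0.72 ± 0.06 (limma adjusted p = 3.7e-07), ANAPC7 by 0.86 ± 0.09 (adjusted p = 2.1e-06) and ANAPC4 by 0.63 ± 0.07 (adjusted p = 8.8e-06). Of the 14 subunits, 9 had a limma adjusted p under 0.05 in the mean. Of these, only ANAPC16 (-0.31 ± 0.05, adjusted p = 6.5e-05) and CDC16 (-0.19 ± 0.06, adjusted p = 0.021) stood below 0. Neither passed the fold threshold, and both were named after their values were seen. The TE count was 2 without TE replicate 2 or untreated replicate 2 and 0 without untreated replicate 3. The HTyr count was 1 without untreated replicate 3. Of 6 APC/C regulators 4 were tested and 1 rose in the mean: FBXO5 (EMI1), the interphase inhibitor of APC/C, by 0.87 ± 0.07 (adjusted p = 2.0e-07). UBE2S, which lengthens the chains that UBE2C starts, stood at 0.44 ± 0.11 (adjusted p = 0.0034) and USP37, a deubiquitinase of cyclin A, at 0.21 ± 0.09 (adjusted p = 0.059). The regulators' median was 0.33, and the counts of rises were 1 for AE, 1 for TE, 2 for SE and 1 for HTyr (10.4% of all genes in the mean, and 10.7%, 7.46%, 17.0% and 7.80% by treatment), too few genes to be read against those shares; without untreated replicate 2 the counts for HTyr and for the mean were 2, and without untreated replicate 1 the count for SE was 1.

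Of 15 genes for sister chromatid cohesion, on which separase acts, 6 rose in the mean and none fell, with a median of 0.25; the counts of rises were 6 for AE, 3 for TE, 7 for SE and 3 for HTyr, where 10.4% of all genes rose in the mean and 10.7%, 7.46%, 17.0% and 7.80% by treatment. The TE count was 5 without untreated replicate 2. CDCA5 (sororin), which protects cohesin, rose by 1.2 ± 0.07 (limma adjusted p = 1.7e-08), ESCO2, which acetylates the cohesin subunit SMC3 in S phase, by 1.57 ± 0.13 (adjusted p = 4.2e-07), and RAD21, the subunit that separase cuts, by 0.59 ± 0.04 (adjusted p = 4.2e-08), just past the fold threshold. ESCO1, the other SMC3 acetyltransferase, was lower with HTyr, at 8.42 ± 1.29 TPM in HTyr cells and 13.4 ± 1.1 TPM in untreated cells (SD, n = 3 each), as were 8.45% of all genes. Its log2 fold change was -0.65, and -0.53, not called, without HTyr replicate 2; it was named after its value was seen. PTTG1IP, which binds securin, stood at -0.35 ± 0.04 in the mean (adjusted p = 1.6e-05) and was not called, and PTTG2 and PTTG3P were too low to test.

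All 15 listed APC/C substrates other than securin rose in the mean of the treatments, with a median of 1.08, and the counts of rises were 15 for AE, 12 for TE, 15 for SE and 15 for HTyr, against 10.4% of all genes in the mean and 10.7%, 7.46%, 17.0% and 7.80% by treatment. CCNB1, cyclin B1, averaged 158.7 TPM in AE, 117.5 in TE, 238.5 in SE and 166.6 in HTyr cells, against 52.0 in untreated cells, a rise of 1.66 ± 0.04 (limma adjusted p = 2.4e-11). CCNB2, cyclin B2, rose by 1.02 ± 0.05 (adjusted p = 4.3e-09) and RRM2, a subunit of ribonucleotide reductase, by 1.82 ± 0.06 (adjusted p = 7.3e-11). These are transcripts, while APC/C acts on the proteins, which were not measured in these files. Of 14 genes that transcribe mitotic genes or belong to MuvB, DREAM and NF-Y complexes, 6 rose in the mean and none fell, with a median of 0.46, and the counts of rises were 6 for AE, 4 for TE, 8 for SE and 3 for HTyr (over all genes the same shares as for the substrates). The TE count was 2 without untreated replicate 1, and 2 under median-ratio scaling. MYBL2 (B-MYB), which joins MuvB in S phase, rose by 1.39 ± 0.07 (adjusted p = 4.7e-09), FOXM1, which joins it in G2, by 1.24 ± 0.07 (adjusted p = 1.0e-08), and TFDP1, the partner of E2F proteins, by 0.79 ± 0.06 (adjusted p = 8.1e-08). Of these 14 genes LIN54, the MuvB subunit that reads the CHR, stood at 0.00 ± 0.07 (adjusted p = 0.97), and was named after its value was seen.

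**Figure D5:**
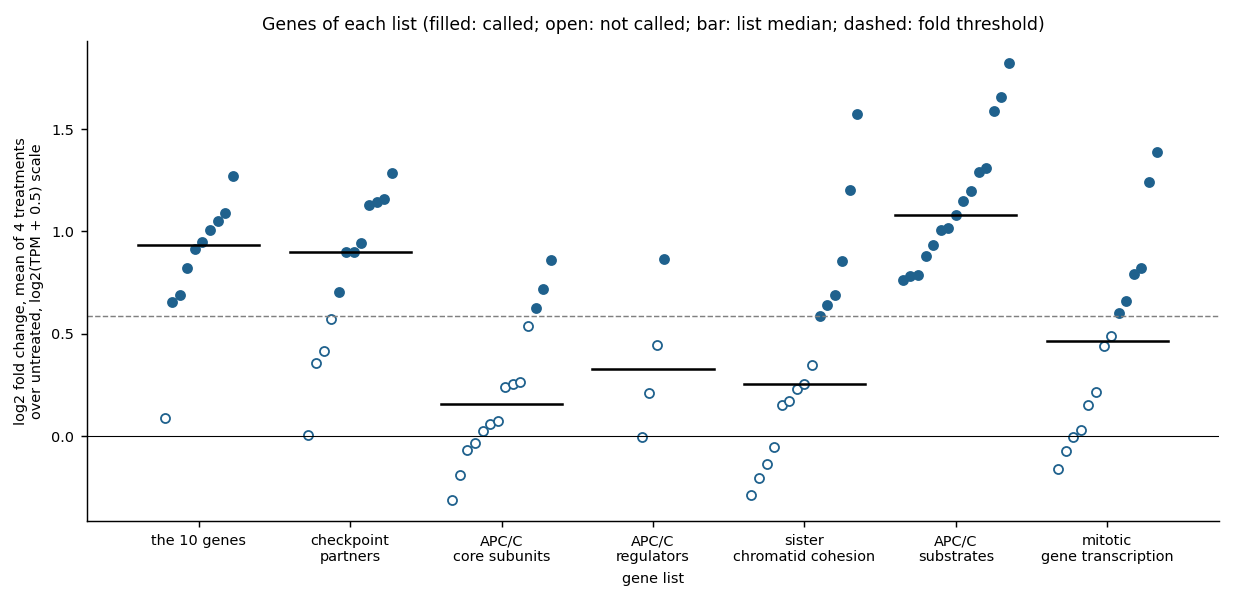
Log2 fold change in the mean of the 4 treatments over untreated cells (vertical axis, log2(TPM + 0.5) scale) for the genes of each list; each point is a gene, filled points were called, black bars are list medians and the dashed line is the fold threshold. The medians are 0.93 for the 10 genes, 0.90 for checkpoint partners and 1.08 for APC/C substrates, and 0.16 for APC/C core subunits.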

How the data were processed

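RNA of 15 HCT116 samples was sequenced by the authors after poly(A) capture with a stranded kit. Reads were clipped with Scythe, trimmed with Sickle, aligned to GRCh38 with STAR and quantified for Ensembl genes (release 104) with RSEM. The deposited TPM values were made by the authors in that way for each library, are rounded to 2 decimals and carry no scaling between libraries. The authors' own tests took estimated counts into DESeq2, and those counts were not used here. The study gives depth only as an average over samples, and TPM hold no read totals. The depth of each library is therefore unknown and counting error cannot be given.

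Each column was tied to its sample by its description and title, and for TE and SE by the description against the title's bracketed code. Genes were named from GENCODE 44 (60463 of 60664 identifiers). The members were matched by symbol, and they and the lists of related genes were chosen by hand with earlier results of these data known. Values were analysed as log2(TPM + 0.5) with limma 3.58.1 in R 4.3.3 (mean-variance trend, 5 group means in 1 fit, 10 residual and 3.42 prior degrees of freedom), after a filter that left out 45765 genes. The calls needed a Benjamini-Hochberg adjusted p under 0.05 over all tested genes and a change over 1.5 times. The test was checked on simulated data. Named genes were all 10 members, for each other list the 3 genes of lowest adjusted p in the 4-treatment mean and any called against the list's main direction there, and the 5 other genes most like the members. MAD1L1, LIN54, ESCO1, ANAPC16 and CDC16 were named outside that rule. Ratios and likenesses were described without tests. Promoter windows were taken from RefSeq. Tables were made with Python 3.11.15, numpy 2.4.6 and pandas 2.3.3, and plots with matplotlib 3.10.9.

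Alternatives were pseudocounts of 0.1 and 1, no filter, a filter on a mean of 5 TPM, quantile normalization, median-ratio scaling, removal of mitochondrially encoded genes, only the groups compared, no trend, array weights, a replicate block, and leaving out each library in turn. Leaving out the AE, TE and SE libraries with the highest mitochondrially encoded share was added after seeing the data.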

Additional observations from a re-analysis of the deposited data

How the results depend on the processing

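The depth of each single library is unknown, each group has 3 libraries, and many members lie near the fold threshold. Counts between treatments are therefore the least firm values. Against untreated cells the number of members called stayed at 7 to 9 for AE, 5 to 7 for TE, 8 to 9 for SE, 8 to 9 for HTyr over every alternative, and at 8 to 9 for the mean of the 4 treatments over every alternative but a fit of only the groups compared, which was not run for the mean; all calls were rises. For SE against TE it was 5 to 7, and for AE against HTyr and AE against TE it was 0 in every alternative. For SE against HTyr, 2 in the main analysis, it was 1 under median-ratio scaling, quantile normalization and array weights and without the AE, TE and SE libraries of highest mitochondrially encoded share, and 1 to 2 when each library was left out in turn. For TE against HTyr it was 1 under median-ratio scaling. For SE against AE, 1 in the main analysis, it was 2 with a pseudocount of 0.1, without mitochondrially encoded genes, with array weights and without the libraries of highest mitochondrially encoded share, 0 under quantile normalization, and 1 to 3 when each library was left out. The cause of these changes was not tested. For single genes, the Results name only some of the alternatives under which a call was lost or gained. Calls over all 14899 tested genes moved too. Those higher in SE than HTyr were 741 in the main analysis and 323 under median-ratio scaling, and those lower 355 and 561. Those higher in SE than AE were 289 in the main analysis, 239 under quantile normalization, 289 with a pseudocount of 0.1 and 303 with array weights.

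Signs turned only in log2 fold changes that had not been called. Against HTyr, SE gave CDC20 values of -0.073 under median-ratio scaling and -0.065 under quantile normalization, ESPL1 -0.038 and -0.049 and UBE2C -0.13 and -0.12 in the same settings, and UBE2C -0.067 to 0.070 with each library left out. AE against HTyr gave BUB1B -0.015 and -0.00874 and FZR1 -0.12 and -0.13 in those settings, BUB3 -0.074 under median-ratio scaling and FZR1 -0.012 with array weights. Without the libraries of highest mitochondrially encoded share MAD2L1 stood at 0.027 and FZR1 at -0.13, and with each library left out MAD2L1 ranged over -0.10 to 0.027 and FZR1 over -0.13 to 0.13. FZR1 against untreated ranged over -0.10 to 0.18 for TE and -0.082 to 0.18 for the mean of the 4 treatments with each library left out. For all genes, rises and falls were 2532 and 1636 for SE against untreated and 2006 and 2049 under median-ratio scaling, and for AE against untreated 1601 and 865, and 1207 and 1154. For TE against untreated they were 1112 and 784, and 980 and 914 under that scaling. For HTyr against untreated they were 1162 and 1259, and 1295 and 1136 under that scaling.

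Libraries with the same replicate number did not deviate together: r ran from -0.21 to 0.26 over 30 same-number pairs, with 3 over 0.1, so the numbers were not taken to pair the samples. With a replicate block the members called were 9 for AE, 6 for TE, 9 for SE, 8 for HTyr and 9 for the mean, and 2, 1 and 7 for SE against HTyr, AE and TE, the same counts as without it. Of all 14899 tested genes, 1588, 1101, 2534, 1154 and 1560 rose with the block for AE, TE, SE, HTyr and the mean. Those higher in SE than in HTyr, AE and TE were 740, 273 and 690.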
